A study of Mus musculus with 18 samples.

Results

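The 40 genes described here encode proteins that detect, signal or repair damaged DNA, and they were taken from a table of 19862 genes by their symbols. All 40 were in the table and all passed the filter for low values, which kept 17515 genes above 0 in at least 3 libraries. They fall into 7 repair pathways, namely homologous recombination (12 genes), break sensing and checkpoint signalling (9), the Fanconi anemia pathway (5), end joining (5), single-strand break and base excision repair (3), nucleotide excision repair (4) and mismatch repair (2). The study asked how loss of the arginine methyltransferase Prmt1 changes the RNA of mouse osteosarcoma cells, both in the cytoplasm and on polysomes. The cells were derived from bone tumors of p53 and Rb conditional knockout mice (mixed background, post natal day 299), carried Prmt1 f/f alleles and stably expressed CreER, a Cre recombinase that tamoxifen activates.

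Knockout cells (labelled Prmt1-/-) were Prmt1 f/f CreER cells given 4OHT, the active form of tamoxifen, and control cells (labelled wild type) were the same cells given the ethanol vehicle. From each, RNA was taken as Total (whole cytoplasmic lysate), as Light (pooled gradient fractions with fewer than 3 ribosomes) or as Heavy (more than 3 ribosomes), with n = 3 libraries in each of the 6 groups. Both arms therefore share the p53 and Rb background, the floxed alleles and the CreER transgene, and no cells without floxed alleles were given 4OHT, so the drug, active Cre and the deletion cannot be told apart. The labels do not say whether replicate libraries were grown as separate cultures. The p-values therefore measure the spread between libraries alone, and that spread may be technical. Each value is a level in CPM, counts per 1000000 reads of its library. A higher Heavy value is a larger share of the Heavy RNA and gives no speed of translation. Fewer cells of a kind and less RNA per cell cannot be told apart in such bulk samples.

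DNA repair is divided by the kind of lesion. Homologous recombination copies a broken chromosome from its sister and is led by Brca1 and Brca2, while end joining religates broken ends after Ku binds them. Excision pathways remove damaged or mispaired bases from a single strand. Many repair genes are transcribed most in dividing cells, and cells that lose homologous recombination become sensitive to agents that stall replication forks.

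Depth was 32.3 to 57.9 M reads (M for 1000000) per library. Prmt1 had 147, 176 and 173 CPM in knockout Total, against 256, 277 and 285 CPM in control Total libraries, with no overlap between the groups (log2 change -0.72, SE 0.21, adjusted p 0.0202). Its Light levels were 166, 229 and 234 CPM in knockout, against 255, 243 and 218 CPM in control libraries, groups that overlap (log2 change -0.20, SE 0.21, adjusted p 0.506). Its Heavy levels were 64.4, 121 and 145 CPM in knockout, against 412, 378 and 370.1 CPM in control libraries, and all knockout libraries were lower (log2 change -1.88, SE 0.21, adjusted p 7.87e-06). The knockout libraries numbered 1 lay farthest from their group means, with a deviation (root mean square, log2) of 0.339 in Heavy. Of 10 osteoblast markers, 7 averaged at least 1 CPM in every group. Summed macrophage, endothelial, epithelial and lymphocyte markers reached at most 23.0, 4.33, 27.8 and 3.17 CPM in any group, with the defining marker Ptprc at 0 in 3 of the 6 groups and Cldn5 at 0 in 5. The first 3 of these sums were higher in knockout than in control libraries in every fraction, for example 16.97 to 21.2 CPM in knockout libraries against 6.01 to 8.64 CPM in control libraries for the epithelial markers in Total, and 4 of 8 macrophage, 3 of 7 endothelial and 5 of 9 epithelial markers tested were called higher in Total. Their part in the results below was not tested.

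In Total RNA, 15 of the 40 genes were lower in knockout cells and 1, Xrcc5, was higher. That is 37.5% lower and 2.5% higher, beside 10.3% of all tested genes called lower and 16.1% called higher (limma on log2(CPM + 1), Benjamini-Hochberg adjusted p under 0.05 over all 17515 genes). The median log2 change of the 40 genes was -0.25, against 0.01 for all tested genes. In Light RNA 10 were higher and 6 lower, or 25% and 15%, close to the 26.8% and 12.7% of all tested genes, so the Light counts are not a result about these genes as a group. In Heavy RNA 7 were higher and 9 lower, or 17.5% and 22.5%, beside 18.5% and 10.4% of all tested genes. No gene was called in opposite directions in different fractions, 29 (72.5%) were called in at least 1 fraction, against 50.9% of all tested genes, and 11 (27.5%) were called in none, against 49.1%. The 3 comparisons use different libraries but share the estimate of each gene's spread, and nothing says that the libraries came from separate cultures. Same-numbered knockout libraries deviated together between Light and Total (correlations of 0.434 to 0.642) and between Heavy and Light (0.276 to 0.603). Calls of a gene in several fractions are therefore not independent of each other. The 5 genes called lower in all 3 fractions (Brca2, Mre11a, Rad51c, Rad51d and Xpa) are 12.5% of the 40 genes, against 4.84% of all tested genes. Here and below, the shares of all tested genes include many genes of low level. Of the 17515 genes, 11602 averaged at least 1 CPM, as did all of the 40 (lowest Lig4, 1.37 CPM). The shares called among those 11602 genes are not given here, so the contrasts with all tested genes may be overstated.

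**Figure D1:**
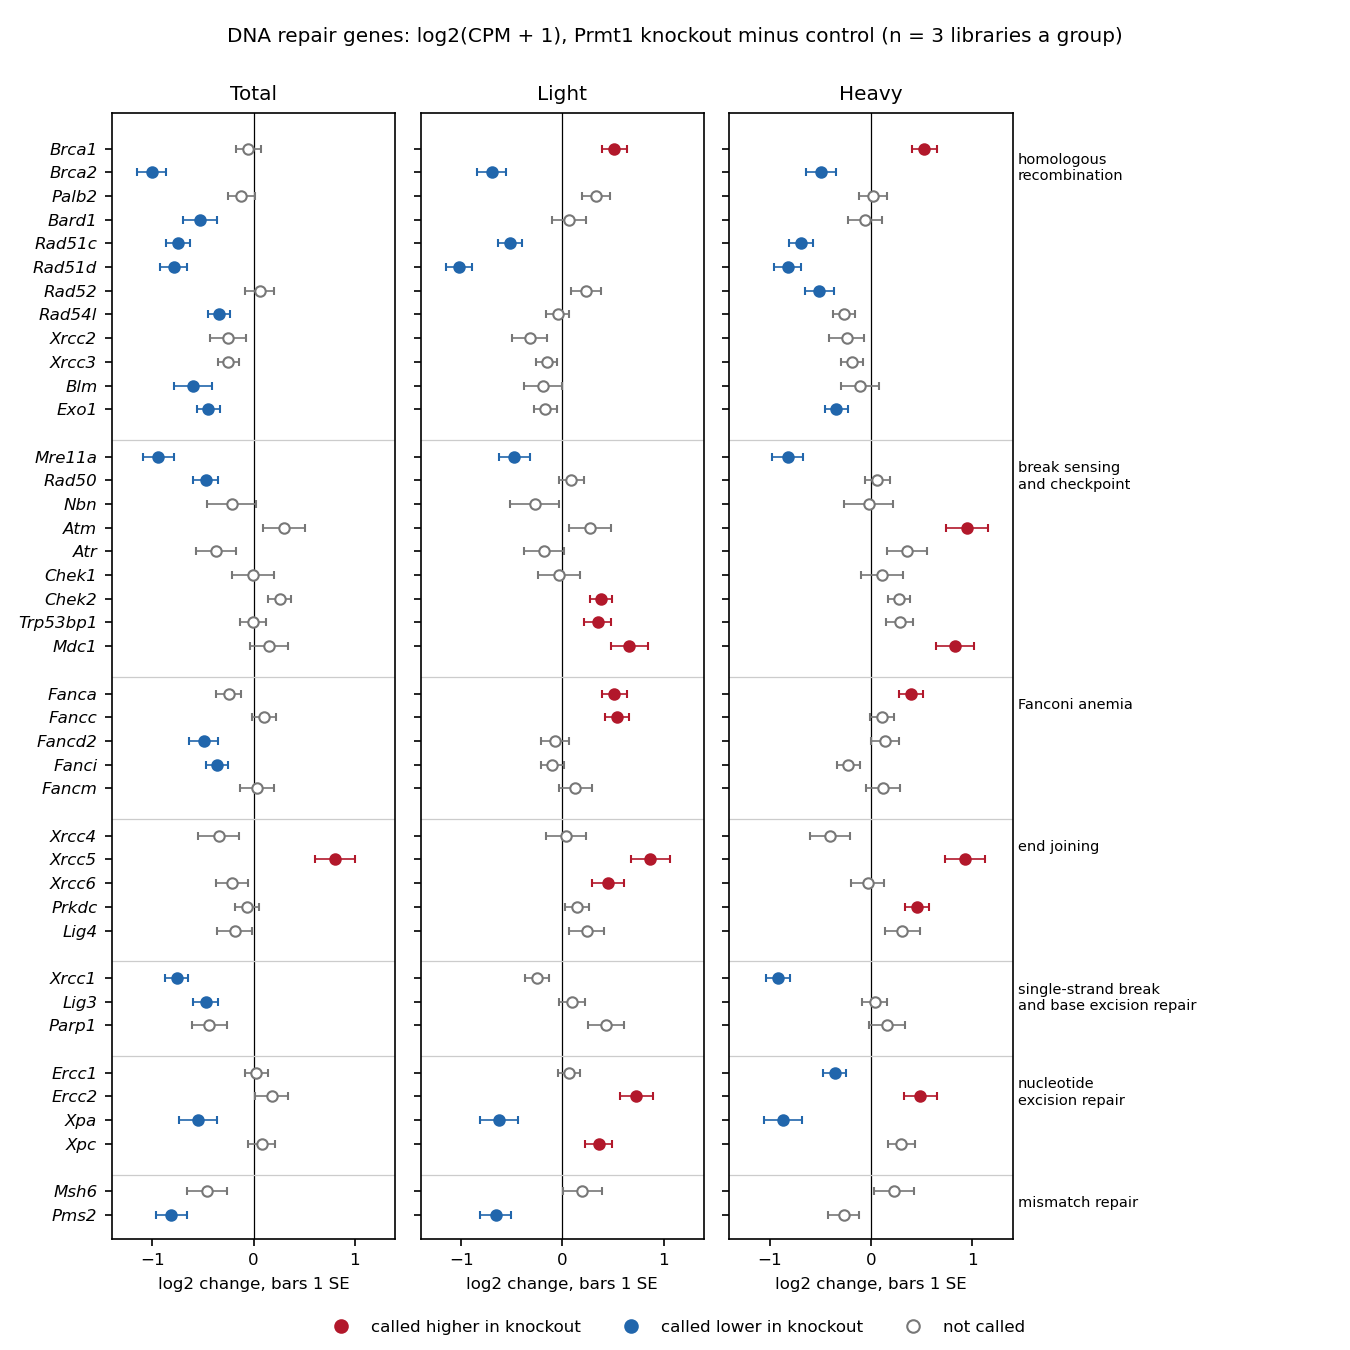
Log2 change of each of the 40 genes, knockout minus control, in Total, Light and Heavy RNA, with genes down the page by pathway and bars of 1 SE; filled points passed the limma test. In Total 15 filled points lie left of 0 and only that of Xrcc5 lies right of it, while Light and Heavy hold filled points on both sides; with the coding-length trend removed, the values of Trp53bp1 in Light and of Fanca and Prkdc in Heavy were below 0.

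The split in Light and Heavy depended on how libraries were put on a common scale. Over genes of at least 1 CPM, the median log2 change was 0.14 in Light, 0.05 in Heavy and -0.01 in Total, and the median of the 40 genes in Light was 0.08. The 10 higher and 6 lower calls in Light became 2 and 12 after quantile normalization, 2 and 11 after median-of-ratios scaling, and 1 and 18 once the trend with coding length was removed from each library. In Heavy the 7 higher and 9 lower calls became 4 and 10, 5 and 14, and 2 and 16 under the same alternatives. In Total they were 1 and 15, 1 and 15, and 1 and 18. The shares of all tested genes called under these scalings are not given here, so these counts cannot be set beside a background. After median-of-ratios scaling, the median log2 change over genes of at least 1 CPM was -0.06 in Light, -0.11 in Heavy and -0.06 in Total. All 6 lower calls in Light and all 9 in Heavy were among the lower calls under each of these 3 scalings. Of the 10 higher calls in Light, those of Xrcc5 and Ercc2 were kept after quantile normalization and median-of-ratios scaling, and that of Xrcc5 alone once the length trend was removed.

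**Figure D2:**
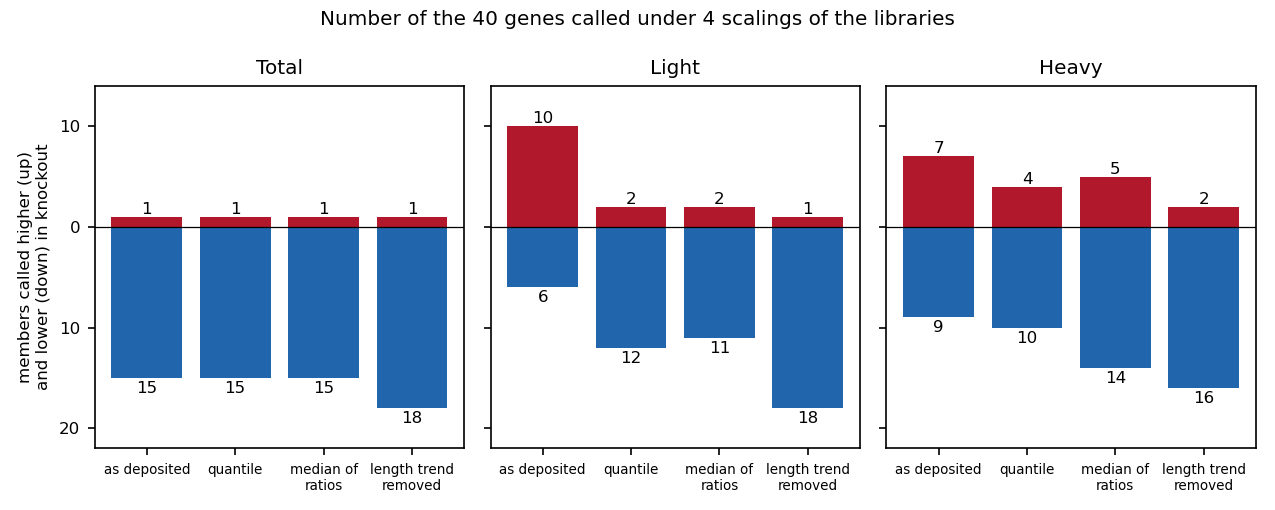
Number of the 40 genes called higher (upward bars) and lower (downward bars) in knockout cells under 4 scalings of the libraries, for Total, Light and Heavy RNA. The Total counts stay at 1 higher and 15 to 18 lower, whereas the higher calls in Light number 10 on the deposited scale and 1 to 2 under the others. The shares of all tested genes under the other scalings are not given here.

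Coding length moved with the polysome changes. Among all genes of at least 1 CPM, the median log2 change in Light was -0.45 in the tenth with the shortest coding sequences and 0.40 in the tenth with the longest; in Heavy these were -0.13 and 0.45, and in Total -0.07 and 0.06. Across the 40 genes, Spearman's rho between coding length and log2 change was 0.05 in Total, 0.25 in Light and 0.59 in Heavy, a description over genes that share the same libraries. The 20 genes with coding sequences of at least 2628 nt held 5 higher and 1 lower call in Heavy, and the 20 shorter ones held 2 higher and 8 lower calls. Its part in the Light and Heavy results is measured only by the fit with the trend removed.

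**Figure D3:**
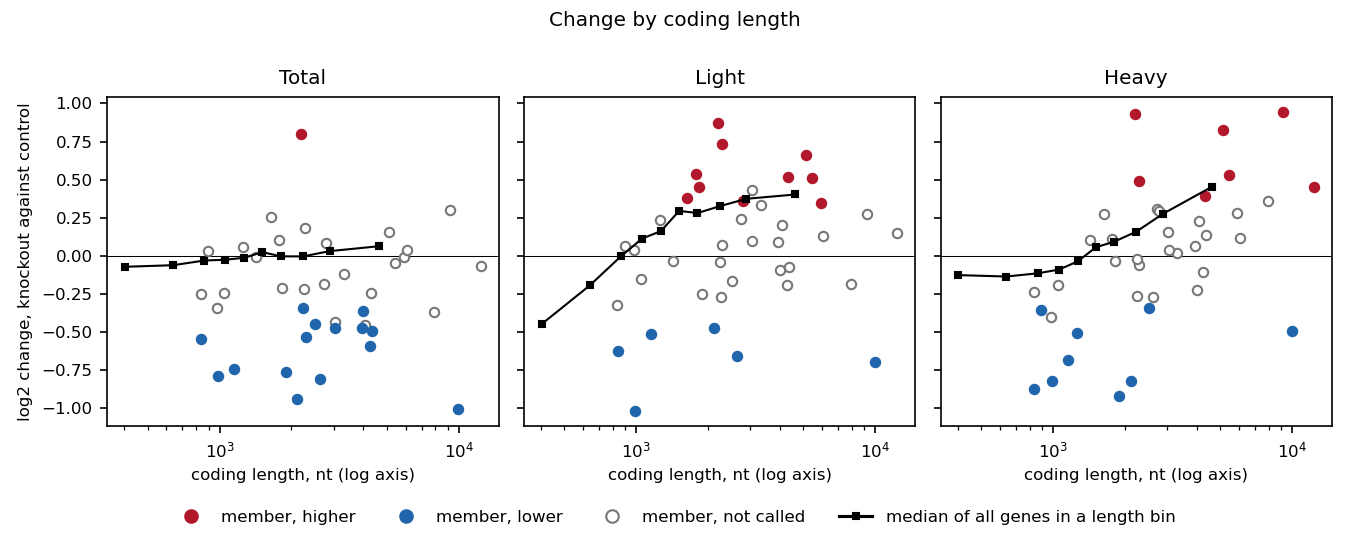
Log2 change, knockout minus control, against coding length (log axis, in nt) for the 40 genes, with a line through the medians of all genes of at least 1 CPM in 10 bins of coding length. The line is nearly flat in Total (-0.07 to 0.06) and climbs in Light (-0.45 to 0.40) and Heavy (-0.13 to 0.45); Brca2, a long gene, lies below it in each panel, at -1.01 in Total, -0.70 in Light and -0.50 in Heavy.

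Promoter windows were available for 32 of the 40 genes, in 35 windows of 250 bases before to 50 bases after a start (RefSeq, GRCm38.p6). Because many of these genes fell together in Total RNA, the windows were searched on both strands for short promoter words, only some of them tied to cell cycle transcription. An E2F-type word (TTTGGCGC, TTTCCCGC, TTTCGCGC or TTTGCCGC) was present in 8 of the 35 windows (22.9%), against 3.28% of 18552 windows of all table genes. The word CCAAT was in 57.1%, against 37.7% of all windows. The NRF1-type word GCGCATGC was in 17.1% against 4.02%, and the cell cycle homology word TTTGAA in 2.86% against 13.6%. Windows of genes called lower in Total held an E2F-type word in 4 of 13 (30.8%) and those of the other members in 4 of 22 (18.2%). Rad51c and Rad54l among the lower genes, and Lig4 among the others, are counted more than once, since each has more than 1 window. The windows of Rad54l nearly coincide and hold the same CCAAT word. The same split was 53.8% against 59.1% for CCAAT and 15.4% against 18.2% for the NRF1-type word. For TTTGAA it was 7.69% (1 window) against 0%. The stretches below show each match with the E2F-type word in capitals, read on the strand of the gene, since these are the letters behind the count; a match is a description of the sequence and not evidence of binding.
Bard1 (minus strand, chr1:71103163-71103192): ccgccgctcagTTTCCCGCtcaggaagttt
Brca2 (plus strand, chr5:150522442-150522471): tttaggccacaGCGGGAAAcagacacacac
Chek2 (plus strand, chr5:110839820-110839849): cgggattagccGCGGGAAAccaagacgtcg
Mdc1 (plus strand, chr17:35841471-35841500): tcttcagcctgTTTCCCGCcggtagccgca
Msh6 (plus strand, chr17:87975054-87975083): ctcctcccgacTTTCCCGCcagcggcggcc
Rad51c (minus strand, chr11:87404477-87404506): gtttccagcgcTTTCGCGCctcttgctcta
Rad51c (minus strand, chr11:87404941-87404970): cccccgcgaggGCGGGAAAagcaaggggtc
Xrcc6 (plus strand, chr15:82016312-82016341): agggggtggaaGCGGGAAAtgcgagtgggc
Bard1, Brca2 and Rad51c were lower in Total RNA, whereas Chek2, Mdc1, Msh6 and Xrcc6 were not called there.

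Homologous recombination, the pathway with the most genes here, also held the largest number of lower genes in Total. There 7 of its 12 genes (58.33%) were lower and none higher, with a median log2 change of -0.39. Of all tested genes, 10.3% were lower. The share was larger in single-strand break and base excision repair, at 2 of 3 genes (66.67%). Of 20 other recombination genes, 7 (35%) were lower and none higher, beside 28.6% lower of all 91 other repair genes. Brca2 (chr5:150522630-150570329, plus strand, GRCm38), a core protein of homologous recombination, had 4.69, 5.07 and 4.38 CPM in knockout Total, against 11.5, 10.6 and 9.43 CPM in control Total libraries. The knockout Total libraries were all below the controls by more than the spread within either group (log2 change -1.01, SE 0.15, adjusted p 8.16e-05). Levels in Light were 2.01, 2.76 and 2.09 CPM in knockout, against 3.81, 4.46 and 4.68 CPM in control libraries (log2 change -0.70, SE 0.15, adjusted p 0.00124). Heavy levels were 2.42, 2.74 and 1.86 CPM in knockout, against 2.81, 4.09 and 4.30 CPM in control libraries (log2 change -0.50, SE 0.15, adjusted p 0.0169). The groups did not overlap in any fraction, although the Heavy call was lost without control Heavy library 2 or 3 or knockout Heavy library 3 (adjusted p 0.0701, 0.0813 and 0.0694) and when the Heavy libraries were fitted alone (0.108). With the length trend removed the Light and Heavy changes were -1.14 and -1.19.

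Rad51c and Rad51d, both recombination proteins, were lower in every fraction. Rad51d (chr11:82876434-82890614, minus strand) had 11.6, 10.7 and 11.4 CPM in knockout Total, against 18.9, 19.7 and 21.8 CPM in control Total libraries (log2 change -0.79, SE 0.13, adjusted p 0.000284). The Light libraries gave 15.4, 16.8 and 15.1 CPM in knockout, against 34.1, 33.97 and 30.9 CPM in control libraries (log2 change -1.02, SE 0.13, adjusted p 1.69e-05), the lowest Light change of the 40 genes. Levels in Heavy were 7.15, 8.57 and 11.7 CPM in knockout, against 17.3, 17.4 and 15.3 CPM in control libraries (log2 change -0.82, SE 0.13, adjusted p 0.000178), again with no overlap. Rad51c (chr11:87376645-87404954, minus strand) had 6.27, 7.14 and 5.09 CPM in knockout Total, against 12.02, 10.5 and 10.4 CPM in control Total libraries (log2 change -0.75, SE 0.12, adjusted p 0.000169). Its Light levels were 8.81, 7.60 and 8.40 CPM in knockout, against 11.6, 11.5 and 13.7 CPM in control libraries (log2 change -0.51, SE 0.12, adjusted p 0.00243). Heavy levels were 6.45, 6.57 and 5.86 CPM in knockout, against 11.2, 10.6 and 10.5 CPM in control libraries (log2 change -0.69, SE 0.12, adjusted p 0.000310). The calls of both genes held in all 30 alternative settings in each fraction. Xrcc2 and Xrcc3, also recombination proteins, were not called on the deposited scale, with log2 changes of -0.32 to -0.24 and -0.25 to -0.16 over the fractions. With the length trend removed, both were lower in Light (-0.32 and -0.30, adjusted p 0.0454 and 0.0265). Xrcc3 was then lower in Total as well (-0.32, adjusted p 0.0324).

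Brca1, the ubiquitin ligase subunit that starts recombination, was not called in Total. It had 15.98, 20.6 and 17.6 CPM in knockout Total, against 19.96, 19.1 and 17.1 CPM in control Total libraries (log2 change -0.05, SE 0.13, adjusted p 0.808), and the groups overlapped. In Light it had 9.85, 11.2 and 11.1 CPM in knockout, against 6.83, 7.40 and 7.42 CPM in control libraries (log2 change 0.51, SE 0.13, adjusted p 0.00404). Heavy levels were 14, 11.5 and 11.01 CPM in knockout, against 6.91, 9.19 and 8.37 CPM in control libraries (log2 change 0.53, SE 0.13, adjusted p 0.00458). With the length trend removed these changes were 0.08 and 0.02 and neither was called. The Heavy call was also lost with the Heavy libraries fitted alone (adjusted p 0.0622). Its partner Bard1 had 6.80, 8.29 and 9.56 CPM in knockout Total, against 13.3, 11.4 and 12.2 CPM in control Total libraries (log2 change -0.53, SE 0.17, adjusted p 0.0272). This call was lost without control Total library 1 or 3 or knockout Total library 1 or 2 (adjusted p 0.0575 to 0.125). Bard1 was not called in Light or Heavy. Palb2, which bridges Brca1 and Brca2, was not called in any fraction (log2 changes of -0.12, 0.33 and 0.02 in Total, Light and Heavy).

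Exo1, the exonuclease that resects broken ends, had 24.9, 29.7 and 31.96 CPM in knockout Total, against 40.2, 40.6 and 37.8 CPM in control Total libraries (log2 change -0.45, SE 0.11, adjusted p 0.00725). The Heavy libraries gave 33.1, 38.4 and 35.4 CPM in knockout, against 40.7, 48.2 and 47.5 CPM in control libraries (log2 change -0.34, SE 0.11, adjusted p 0.0311). That call was lost without control Heavy library 2 or 3 or knockout Heavy library 1 or 3 (adjusted p 0.0528 to 0.112), or with the Heavy libraries fitted alone (0.115). Blm, the Bloom helicase, averaged 3.20 ± 0.214 CPM in knockout and 5.46 ± 1.56 CPM in control Total libraries (SD, n = 3 each) (log2 change -0.60, SE 0.19, adjusted p 0.0274). Rad54l, a DNA translocase of recombination, averaged 21.5 ± 2.38 CPM in knockout and 27.4 ± 0.755 CPM in control Total libraries (SD, n = 3 each) (log2 change -0.34, SE 0.11, adjusted p 0.0330). Both calls were lost without control Total library 1 or knockout Total library 1 (adjusted p 0.145 and 0.0735 for Blm, 0.0656 and 0.155 for Rad54l). That of Blm was also lost without knockout Total library 2 (0.0742) and with a pseudocount of 0.1 (0.0686). That of Rad54l was lost without control Total library 2 or 3 (0.0718 and 0.0972), with voom (0.0501) and with the length trend removed (0.0690). Neither gene was called in Light or Heavy on the deposited scale. With the length trend removed, both were lower in Light (-0.64 and -0.42, adjusted p 0.00143 and 0.0374). Under that fit both were also lower in Heavy (-0.55 and -0.49, adjusted p 0.00595 and 0.0251). Exo1 was then lower in Light (-0.52, adjusted p 0.00356). Rad52, an annealing protein, was not called in Total or Light and had 5.84, 7.23 and 6.11 CPM in knockout Heavy, against 8.99, 10.1 and 9.43 CPM in control Heavy libraries (log2 change -0.51, SE 0.15, adjusted p 0.0141); without control Heavy library 2 the adjusted p was 0.0537.

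**Figure D4:**
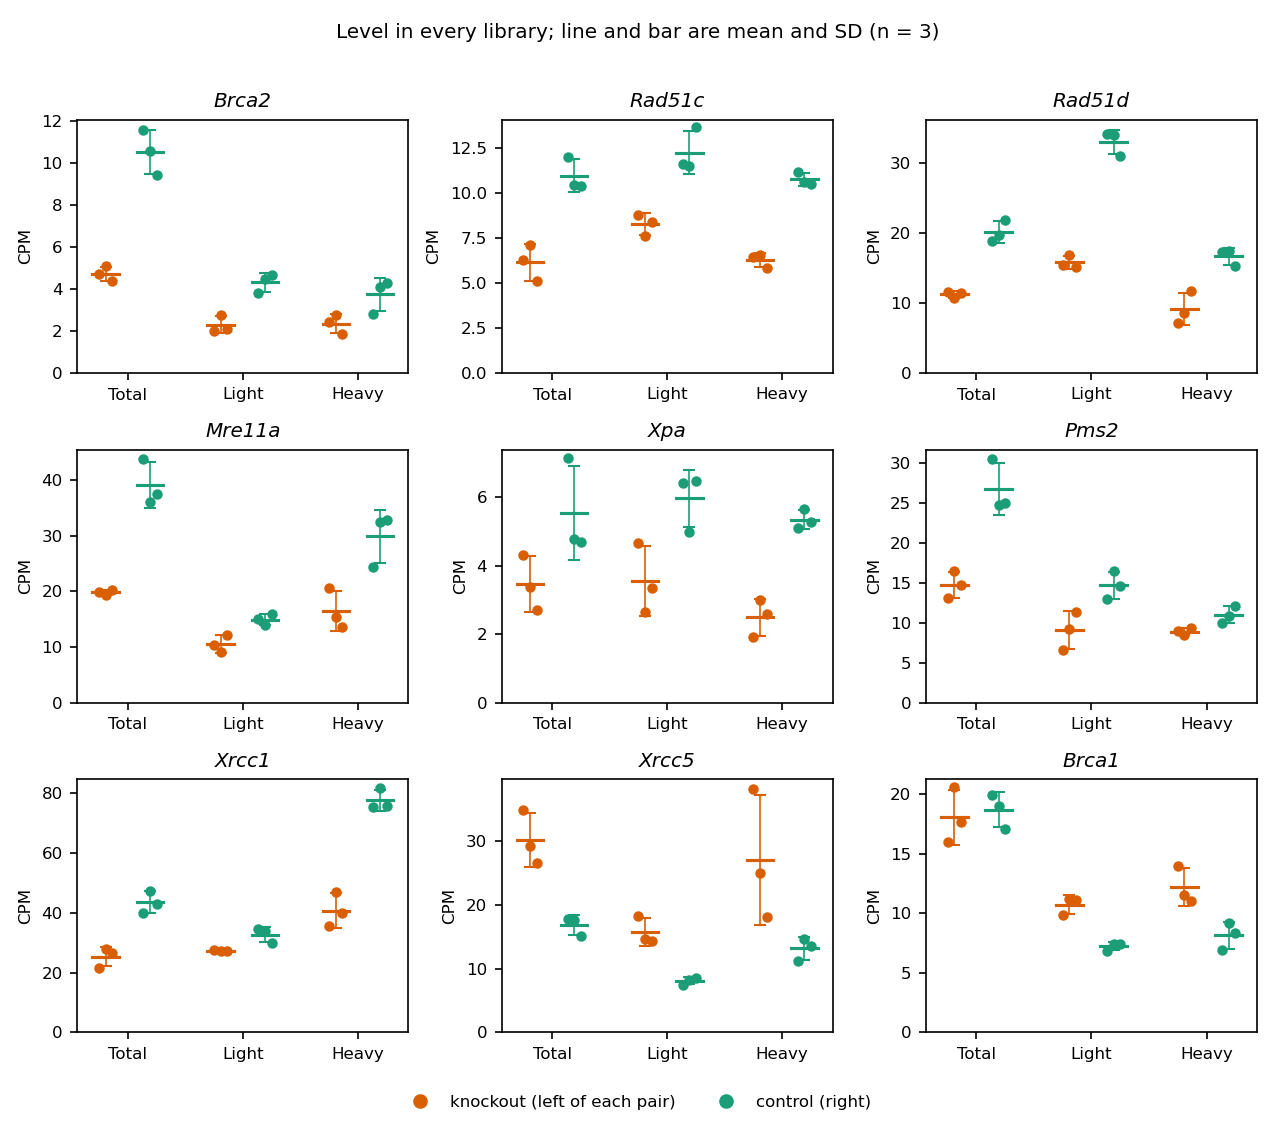
Level in CPM of 9 genes in every library (dots), with mean (line) and SD (bar, n = 3), for knockout (left) and control (right) in Total, Light and Heavy RNA. Brca2, Rad51c, Rad51d, Mre11a and Xpa are lower in the knockout libraries in every fraction, Xrcc5 is higher in every fraction, and the groups of Brca1 overlap only in Total.

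Among the break sensors, the nuclease subunit of the MRN complex, Mre11a (chr9:14784654-14837123, plus strand), was lower in every fraction. It had 19.9, 19.4 and 20.2 CPM in knockout Total, against 43.8, 36.1 and 37.5 CPM in control Total libraries (log2 change -0.94, SE 0.15, adjusted p 0.000211). Its Light levels were 10.3, 9.05 and 12.2 CPM in knockout, against 14.96, 13.9 and 15.9 CPM in control libraries (log2 change -0.47, SE 0.15, adjusted p 0.0200). The Light call was lost without control Light library 3 or knockout Light library 1 or 2 (adjusted p 0.0690, 0.0519 and 0.0859). In Heavy it had 20.6, 15.5 and 13.5 CPM in knockout, against 24.4, 32.4 and 32.8 CPM in control libraries (log2 change -0.83, SE 0.15, adjusted p 0.000591). Its exons overlap those of Ankrd49 on the opposite strand, which averaged 3.55 CPM over all libraries and was not called in any fraction (log2 changes of -0.11, -0.21 and 0.15). Of the other MRN subunits, Rad50 had 6.74, 7.23 and 5.87 CPM in knockout Total, against 11.03, 9.27 and 8.52 CPM in control Total libraries (log2 change -0.47, SE 0.13, adjusted p 0.00977), with adjusted p 0.0553 without control Total library 1, and was not called in Light or Heavy (0.09 and 0.06). With the length trend removed, Rad50 was lower in Light (-0.36, adjusted p 0.0159) and Heavy (-0.38, adjusted p 0.0167). Nbn was not called in any fraction and varied most in Total, with 10.8, 7.33 and 7.04 CPM in knockout, against 14.04, 8.84 and 7.42 CPM in control libraries. With the length trend removed, Nbn was lower in Light (-0.65, adjusted p 0.0159).

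Of the signalling genes among the 40, none was called lower on the deposited scale. Of 12 other break sensing and checkpoint genes, however, 4 were lower in Total, namely Rad1 (-0.53), Clspn (-0.46), Rnf8 (-0.31) and Rnf168 (-0.57), and 1, H2afx (0.84), was higher. Mdc1, the adaptor that binds phosphorylated histone H2AX, had 29.3, 30.2 and 34.2 CPM in knockout Light, against 17.5, 19.4 and 21.3 CPM in control Light libraries (log2 change 0.66, SE 0.18, adjusted p 0.00943). Its Heavy levels were 61.5, 38.02 and 39 CPM in knockout, against 18.1, 28.2 and 30.3 CPM in control libraries (log2 change 0.83, SE 0.18, adjusted p 0.00284), a change of 0.40 with the length trend removed (adjusted p 0.0182) and with an adjusted p of 0.0804 when the Heavy libraries were fitted alone. The Light change was 0.20 with the length trend removed (adjusted p 0.204). Mdc1 was not called in Total (0.15). Atm, the kinase activated by double-strand breaks, was called only in Heavy, with 7.39, 4.83 and 4.74 CPM in knockout, against 1.71, 2.77 and 2.85 CPM in control libraries (log2 change 0.95, SE 0.21, adjusted p 0.00256); with the length trend removed its change was 0.25 and was not called. Chek2, the kinase downstream of Atm, had 18.9, 15.6 and 17.1 CPM in knockout Light, against 12.7, 12.8 and 13.3 CPM in control Light libraries (log2 change 0.38, SE 0.11, adjusted p 0.0124); without knockout Light library 1 its adjusted p was 0.0581, and its Total and Heavy changes were 0.26 and 0.28. Trp53bp1, which favours end joining over resection, averaged 38.5 ± 2.37 CPM in knockout and 30.04 ± 2.34 CPM in control Light libraries (SD, n = 3 each) (log2 change 0.35, SE 0.13, adjusted p 0.0443); this call held in 12 of 30 alternative settings and the value was -0.09 with the length trend removed. Atr and Chek1, which act at stalled forks, were not called in any fraction, with log2 changes of -0.37 to 0.36 and -0.03 to 0.11. With the length trend removed, Atr was lower in Total (-0.49, adjusted p 0.0475) and Light (-0.63, adjusted p 0.00714). Under the same fit Trp53bp1 was lower in Heavy (-0.22, adjusted p 0.0462).

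In the Fanconi anemia pathway, which unhooks crosslinks between DNA strands, the ubiquitinated pair Fancd2 and Fanci fell in Total, and the other 3 members (Fanca, Fancc and Fancm) were not called there. Fancd2 had 9.44, 10.6 and 12.3 CPM in knockout Total, against 15.4, 14.5 and 16.6 CPM in control Total libraries (log2 change -0.49, SE 0.14, adjusted p 0.0154). Fanci averaged 14.6 ± 0.958 CPM in knockout and 19.04 ± 0.892 CPM in control Total libraries (SD, n = 3 each) (log2 change -0.36, SE 0.11, adjusted p 0.0215). Neither was called in Light or Heavy on the deposited scale, with changes of -0.07 and 0.14 for Fancd2 and of -0.10 and -0.22 for Fanci. With the length trend removed, Fanci was lower in Light (-0.55, adjusted p 0.000512) and Heavy (-0.67, adjusted p 0.000108). Fancd2 was then lower in Light (-0.54, adjusted p 0.00372) and not called in Heavy (-0.29). The Total call of Fancd2 was lost without control Total library 3 or knockout Total library 1 (adjusted p 0.0604 and 0.0735). That of Fanci was lost without control Total library 2 or 3 or knockout Total library 2 or 3 (adjusted p 0.0600 to 0.0770). Fanci shares exon bases with Polg on the opposite strand, itself lower in Total (-0.69, adjusted p 0.000219), and whether counting used strand is not stated. The value of Fanci is therefore uncertain.

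Of 7 other Fanconi genes, the core complex genes Fancb (-1.04), Fance (-0.74), Fancf (-0.37) and Fancl (-0.56) were lower in Total. In Light Fance (-0.85), Fancf (-0.32) and Fancl (-0.39) were lower, and of the 7 only the nuclease gene Fan1 (0.50) was higher.

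Fancc and Fanca, also of the core complex, were higher in Light. Fancc had 14.8, 13.5 and 14.4 CPM in knockout Light, against 9.75, 9.59 and 9.18 CPM in control Light libraries (log2 change 0.54, SE 0.12, adjusted p 0.00199). Fanca had 34.8, 36.5 and 42.2 CPM in knockout Light, against 26.4, 26.3 and 25.5 CPM in control Light libraries (log2 change 0.51, SE 0.12, adjusted p 0.00341); the groups did not overlap. Fanca had 64.8, 50.05 and 48.4 CPM in knockout Heavy, against 36.6, 41.8 and 44.3 CPM in control Heavy libraries (log2 change 0.39, SE 0.12, adjusted p 0.0237). There the value was -0.03 with the length trend removed, and the adjusted p was 0.102 without knockout Heavy library 1, 0.107 without control Heavy library 1, and 0.136 with the Heavy libraries fitted alone. With the length trend removed the Light changes were 0.26 and 0.05 and neither was called. Both genes share exon bases with an opposite-strand gene that was also higher in Light, 2010111I01Rik for Fancc (0.57) and Zfp276 for Fanca (0.36). Fancm, the translocase that recruits the core complex, was not called in any fraction (0.03 to 0.13).

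End joining held the 1 gene of the 40 (2.5%) that was higher in all 3 fractions, against 10.7% of all tested genes. Xrcc5 (chr1:72307421-72394952, plus strand), the Ku80 subunit of the end-binding Ku heterodimer, had 34.8, 29.1 and 26.5 CPM in knockout Total, against 17.8, 17.5 and 15.1 CPM in control Total libraries (log2 change 0.80, SE 0.20, adjusted p 0.00608). Levels in Light were 18.2, 14.6 and 14.3 CPM in knockout, against 7.49, 8.24 and 8.59 CPM in control libraries (log2 change 0.87, SE 0.20, adjusted p 0.00224). Heavy levels were 38.1, 24.9 and 18.1 CPM in knockout, against 11.2, 14.7 and 13.6 CPM in control libraries (log2 change 0.93, SE 0.20, adjusted p 0.00186). Every knockout library was above every control library of its fraction, and the Total and Light calls held in 30 of 30 alternative settings. In Heavy the adjusted p was 0.0600 when the Heavy libraries were fitted alone.

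Xrcc6, the Ku70 subunit, passed the test in Light and not in Total or Heavy. It had 67.2, 60.3 and 62.1 CPM in knockout Total, against 70.6, 75.9 and 73.4 CPM in control Total libraries (log2 change -0.21, SE 0.16, adjusted p 0.374), where the groups did not overlap but the test was not passed. The Light libraries gave 49.04, 35.9 and 39.9 CPM in knockout, against 32.1, 28.4 and 29.4 CPM in control libraries (log2 change 0.45, SE 0.16, adjusted p 0.0353). This call was lost under 8 of 30 alternatives, including the removal of control Light library 2 or 3 or of knockout Light library 1 or 3 (adjusted p 0.0593 to 0.162). Its Heavy change was -0.03. Per kilobase of coding sequence, the control Total level was 7.65 CPM for Xrcc5 and 40.2 CPM for Xrcc6. Xrcc6 overlaps Desi1 on the opposite strand. Prkdc, the catalytic subunit that Ku recruits, was higher in Heavy, averaging 2.33 ± 0.0680 CPM in knockout and 1.44 ± 0.211 CPM in control Heavy libraries (SD, n = 3 each) (log2 change 0.45, SE 0.12, adjusted p 0.00837), but its value was -0.24 with the length trend removed. The ligation genes Xrcc4 and Lig4 were not called in any fraction, with log2 changes of -0.41 to 0.04 and -0.19 to 0.31.

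Single-strand break repair contained the gene with the lowest Heavy value. Xrcc1 (chr7:24546289-24573440, plus strand), the scaffold that holds the break repair enzymes together, had 21.7, 27.8 and 26.5 CPM in knockout Total, against 40.01, 47.4 and 43.1 CPM in control Total libraries (log2 change -0.76, SE 0.12, adjusted p 0.000135). In Light it had 27.4, 27.3 and 27.1 CPM in knockout, against 34.5, 34.01 and 29.8 CPM in control libraries (log2 change -0.25, SE 0.12, adjusted p 0.09996), where the groups did not overlap but the test was not passed. With the length trend removed, Xrcc1 was lower in Light (-0.60, adjusted p 0.00173). Levels in Heavy were 35.5, 46.96 and 39.9 CPM in knockout, against 75.5, 81.7 and 75.6 CPM in control libraries (log2 change -0.92, SE 0.12, adjusted p 2.05e-05). Lig3, the ligase bound to Xrcc1, had 25.3, 30.4 and 28.6 CPM in knockout Total, against 38.7, 40.8 and 38.5 CPM in control Total libraries (log2 change -0.48, SE 0.13, adjusted p 0.00983) and was not called in Light or Heavy (0.10 and 0.03), where it was lower with the length trend removed (-0.33 and -0.27, adjusted p 0.00777 and 0.0305). Parp1, the sensor that marks single-strand breaks and the most abundant of the 40 messages per coding kilobase (56.5 CPM in control Total), averaged 128 ± 17.6 CPM in knockout and 172 ± 10.7 CPM in control Total libraries (SD, n = 3 each) (log2 change -0.44, SE 0.17, adjusted p 0.0776) and was not called in any fraction. With the length trend removed, Parp1 was lower in Total (-0.47, adjusted p 0.0209).

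Xrcc1 was the only one of the 40 genes called for a difference in knockout change between Heavy and Light, of -0.67 (SE 0.16, adjusted p 0.0407). The 1 call among 40 (2.5%, lower) stands beside 2.52% of all tested genes called lower and 0.354% called higher in this interaction. At an unadjusted p under 0.05, 6 of the 40 genes passed, against 15.5% of all genes, so the count is no result about the 40. The call held in 9 of 31 alternative settings, with adjusted p up to 0.248, and was lost without any single Heavy control library (0.0716 to 0.107), without knockout Heavy library 3 (0.0774), and without any 1 of the 6 Light libraries (0.0511 to 0.114). With same-numbered Heavy and Light libraries of a genotype as a block, the adjusted p was 0.0670. Rad52 had a larger difference of -0.75 (SE 0.21, adjusted p 0.0643) and was not called. It was called lower with a mean of at least 1 CPM and with limma without trend (adjusted p 0.0483 and 0.0424). Without the knockout libraries numbered 1, Parp1, Rad52 and Xrcc6 were called lower as well (-0.56, -0.85 and -0.58). Between Light and Total, no gene among the 40 was called for a difference in its change, beside 0% of all 17515 tested genes called higher and 0% called lower with limma. At an unadjusted p under 0.05, 14 of the 40 passed, all of them with the Light change above the Total change, against 16.3% of all genes, and voom on the recovered reads also called 0. With the Light and Total libraries fitted alone, 5 were called (Fanca, Lig3, Msh6, Parp1 and Xrcc6), and without the knockout libraries numbered 1, 3 were called (Fanca, Parp1 and Xrcc6). The shares of all tested genes called in these alternative fits are not given here. Their counts therefore cannot be set beside a background.

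In nucleotide excision repair, which cuts out bulky and ultraviolet lesions, Xpa (chr4:46155347-46196311, minus strand), the protein that verifies the damage, was lower in every fraction at a low level. It had 4.31, 3.37 and 2.69 CPM in knockout Total, against 7.12, 4.78 and 4.70 CPM in control Total libraries (log2 change -0.55, SE 0.19, adjusted p 0.0399). This call was lost without control Total library 1, knockout Total library 2 or 3 or control Heavy library 3, or with the Total libraries fitted alone (adjusted p 0.0505 to 0.188). Its Light levels were 4.65, 2.65 and 3.35 CPM in knockout, against 6.42, 4.99 and 6.46 CPM in control libraries (log2 change -0.63, SE 0.19, adjusted p 0.0138), lost without control Light library 3 or knockout Light library 2 (adjusted p 0.0511 and 0.0705). The Heavy libraries gave 1.90, 2.98 and 2.57 CPM in knockout, against 5.10, 5.66 and 5.27 CPM in control libraries (log2 change -0.87, SE 0.19, adjusted p 0.00209), and this call held in 30 of 30 alternatives. Xpa shares exon bases with Ncbp1, an opposite-strand gene of much higher level (124 CPM), which was higher in Light (0.54) and was not called in Total or Heavy.

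Ercc2, a helicase of the repair and transcription factor TFIIH, was higher on polysomes. Levels in Light were 23.7, 21.3 and 26.1 CPM in knockout, against 15.2, 14.3 and 12.1 CPM in control libraries (log2 change 0.73, SE 0.16, adjusted p 0.00205). In Heavy it had 47.3, 33.3 and 26.8 CPM in knockout, against 25.1, 23.8 and 24.7 CPM in control libraries (log2 change 0.49, SE 0.16, adjusted p 0.0334); this call was lost in 11 of 30 alternatives, with a change of 0.27 without knockout Heavy library 1 (adjusted p 0.166) and an adjusted p of 0.0672, 0.0888 or 0.0733 without control Heavy library 1, 2 or 3 and 0.0517 without knockout Heavy library 2. With the length trend removed the Light change was 0.31 (adjusted p 0.0902). Ercc2 shares exon bases with Klc3 on the opposite strand, which was higher in Light as well (0.65, adjusted p 0.00337). Mir343 on the same strand also overlaps Ercc2 and was not called in any fraction. The value of Ercc2 is therefore uncertain. Ercc1, part of the nuclease that cuts 5′ of the lesion, had 19.8, 26.8 and 25.5 CPM in knockout Heavy, against 31.3, 31.2 and 30.02 CPM in control Heavy libraries (log2 change -0.36, SE 0.11, adjusted p 0.0245), with -0.23 and adjusted p 0.104 without knockout Heavy library 1, and adjusted p 0.0670 and 0.0671 without control Heavy library 1 and 2, and 0.142 with the Heavy libraries fitted alone. It shares exon bases with Cd3eap, which was lower in Heavy as well (-0.69). Xpc, the lesion sensor, averaged 11.6 ± 2.65 CPM in knockout and 8.70 ± 0.508 CPM in control Light libraries (SD, n = 3 each) (log2 change 0.36, SE 0.13, adjusted p 0.0412), a call that held in 17 of 30 alternatives; without knockout Light library 3 its change was 0.20 (adjusted p 0.227).

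In mismatch repair, Pms2 (chr5:143909964-143933968, plus strand), which cuts the strand that carries the error, was lower in Total and Light. It had 13.1, 16.4 and 14.7 CPM in knockout Total, against 30.4, 24.7 and 25 CPM in control Total libraries (log2 change -0.81, SE 0.15, adjusted p 0.000903). The Light libraries gave 6.62, 9.24 and 11.3 CPM in knockout, against 12.9, 16.4 and 14.6 CPM in control libraries (log2 change -0.66, SE 0.15, adjusted p 0.00306), and both calls held in 30 of 30 alternatives. In Heavy its groups did not overlap, with 8.95, 8.44 and 9.27 CPM in knockout, against 9.997, 10.8 and 12.1 CPM in control libraries, but the test was not passed (log2 change -0.27, SE 0.15, adjusted p 0.215). With the length trend removed, Pms2 was lower in Heavy (-0.58, adjusted p 0.0049). Msh6, which recognises mispaired bases, had 31.9, 29.5 and 31.9 CPM in knockout Total, against 47.1, 40.02 and 42.4 CPM in control Total libraries (log2 change -0.46, SE 0.20, adjusted p 0.1003) and was not called in any fraction. With the length trend removed, Msh6 was lower in Total (-0.51, adjusted p 0.00761).

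In control cells, 17 of the 40 genes were higher in Heavy than in Light RNA and 3 were lower, or 42.5% and 7.5%, beside 23.6% and 27.1% of all tested genes. Among all genes of at least 1 CPM, the difference between control Heavy and Light varied with coding length. Its median was -1.63 for coding sequences of 111 to 537 nt and -0.615 for those of 540 to 747 nt. In the length bins from 966 nt up, the medians were 0.16 to 0.41. The shortest coding sequence of the 40 genes, that of Xrcc2, has 834 nt. The contrast with all tested genes may therefore be overstated, and it was not tested against genes of similar length. With the length trend removed the split of the 40 genes was 11 higher and 6 lower, with no share of all tested genes given for that fit. Xrcc6 had 77.2, 82.05 and 87.1 CPM in control Heavy libraries, against 32.1, 28.4 and 29.4 CPM in control Light libraries (log2 change 1.42, SE 0.16, adjusted p 1.12e-06). Parp1 had 135, 134 and 157 CPM in control Heavy libraries, against 61.4, 47.7 and 50.9 CPM in control Light libraries (log2 change 1.4, SE 0.17, adjusted p 3.38e-06). Xrcc1 had 75.5, 81.7 and 75.6 CPM in control Heavy libraries, against 34.5, 34.01 and 29.8 CPM in control Light libraries (log2 change 1.22, SE 0.12, adjusted p 1.73e-07). Lig3, also of single-strand break repair, was higher by 0.55, and by 0.18 with the length trend removed (adjusted p 0.0918). Mre11a and Xrcc4 were higher by 0.94 and 0.89 (log2). On the other side, Rad51d had 17.3, 17.4 and 15.3 CPM in control Heavy libraries, against 34.1, 33.97 and 30.9 CPM in control Light libraries (log2 change -0.95, SE 0.13, adjusted p 1.08e-05). Xrcc2 averaged 26.5 ± 1.04 CPM in control Heavy and 44.8 ± 1.70 CPM in control Light libraries (SD, n = 3 each) (log2 change -0.74, SE 0.17, adjusted p 0.00183). Pms2 averaged 10.96 ± 1.06 CPM in control Heavy and 14.7 ± 1.74 CPM in control Light libraries (SD, n = 3 each) (log2 change -0.39, SE 0.15, adjusted p 0.0476). The Pms2 call held in 16 of 31 alternatives and was lost without control Heavy library 1 or 2 or control Light library 2 or 3 (adjusted p 0.0934 to 0.176).

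**Figure D5:**
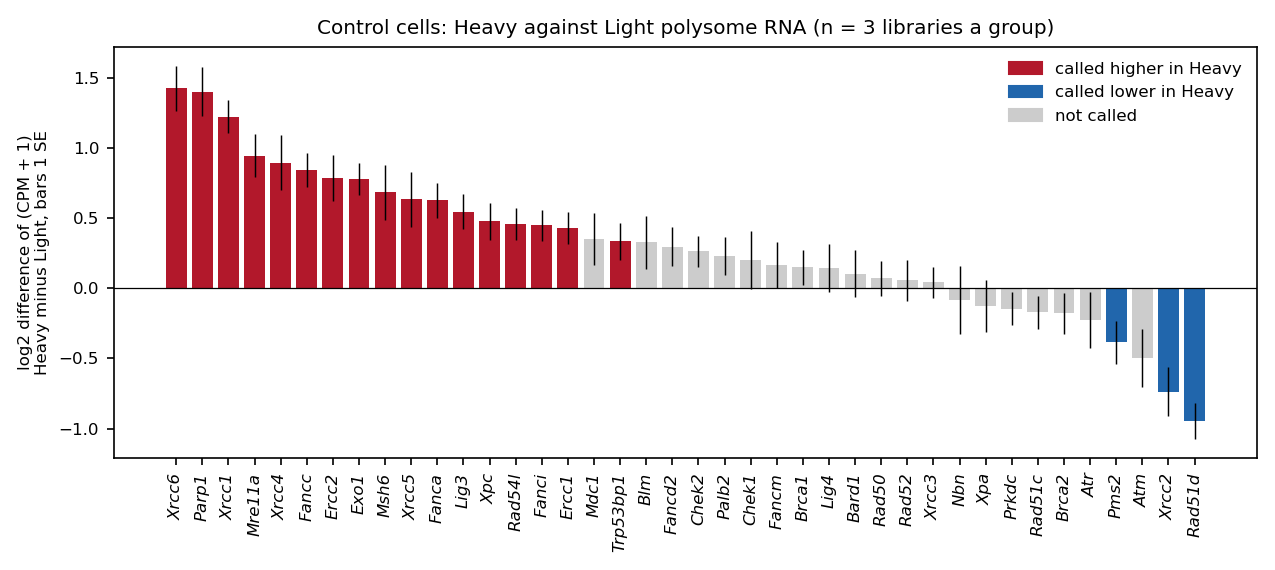
Difference in log2(CPM + 1) between Heavy and Light RNA of control cells for each of the 40 genes, sorted, with bars of 1 SE (n = 3 libraries a group). Xrcc6, Parp1 and Xrcc1 stand at the high end (1.42, 1.4 and 1.22) and Rad51d and Xrcc2 at the low end (-0.95 and -0.74); red and blue bars passed the limma test.

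Of a further 91 repair genes outside the 40, 26 were lower and 4 higher in Total (28.6% and 4.4%), with a median log2 change of -0.23. In Light 20 were lower and 15 higher, beside 12.7% and 26.8% of all tested genes, and in Heavy 27 were lower and 7 higher, beside 10.4% and 18.5%. The Light split became 34 lower and 6 higher after quantile normalization, 35 and 5 after median-of-ratios scaling, and 44 and 8 with the length trend removed. In Heavy these were 31 and 6, 37 and 4, and 37 and 5. No shares of all tested genes under these scalings are given here. The lowest value was that of Mgmt, which removes alkyl groups from guanine directly and averaged 0.384 ± 0.0291 CPM in knockout and 6.98 ± 0.644 CPM in control Total libraries (SD, n = 3 each) (log2 change -2.52, SE 0.14, adjusted p 4.74e-09). Mgmt was also at 0.479 ± 0.127 CPM in knockout and 7.72 ± 0.506 CPM in control Light libraries (SD, n = 3 each) and 0.404 ± 0.281 CPM in knockout and 9.55 ± 1.00 CPM in control Heavy libraries (SD, n = 3 each). Ercc4, the nuclease partner of Ercc1, averaged 3.45 ± 0.367 CPM in knockout and 15.3 ± 1.36 CPM in control Total libraries (SD, n = 3 each) (log2 change -1.87, SE 0.15, adjusted p 2.33e-07) and was lower in Light and Heavy too (-1.15 and -1.24). Tdg, a base excision glycosylase, averaged 82.05 ± 4.08 CPM in knockout and 150.0 ± 2.18 CPM in control Total libraries (SD, n = 3 each) (log2 change -0.86, SE 0.10, adjusted p 1.16e-05). Ddb2, which recognises ultraviolet lesions in chromatin, averaged 20.5 ± 2.92 CPM in knockout and 10.9 ± 1.55 CPM in control Total libraries (SD, n = 3 each) and was higher (log2 change 0.85, SE 0.17, adjusted p 0.00133), as it was in Light (1.31) and Heavy (0.85).

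Proliferation markers fell in part in Total. Of 20 such genes, 8 (40%) were lower, none was higher and 12 were not called in knockout Total RNA. The shares of all tested genes were 10.3% lower and 16.1% higher. Their summed level was 2713 to 3304 CPM in knockout libraries, against 3510 to 3646 CPM in control libraries. Examples with the lowest p were Aurkb (-0.87), Tyms (-0.80) and Ccna2 (-0.71). Among those not called were Pcna (0.33) and Mcm2 to Mcm7 (-0.20 to 0.17). In Light 9 were higher, Pcna and Mcm2 to Mcm7 among them, and 5 lower (45% and 25%, beside 26.8% and 12.7%). The Light sums were 2346 to 2463 CPM in knockout and 2137 to 2329 CPM in control libraries. In Heavy 5 were higher and 7 lower (25% and 35%, beside 18.5% and 10.4%). The Heavy sums overlapped at 3565 to 4399 CPM in knockout and 3954 to 4216 CPM in control libraries. The part of a change in cycling in the lower repair messages was not tested.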

How the data were processed

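Polysome-fractionated and total RNA from mouse osteosarcoma cells was measured in 18 libraries. The deposited values are log2(CPM + 1), as logged by the authors; per the submitters' processing notes, STAR, edgeR and mm10 were used, with no versions. How reads were counted, with which annotation and with or without strand is not stated in any source used here. The values of the 16 genes whose exons overlap another table gene are therefore uncertain. Besides those named with a partner above, they are Rad54l, Xrcc3, Atr, Trp53bp1, Fancd2, Xrcc4, Lig3 and Msh6. Of these, Rad54l, Fancd2 and Lig3 were called lower in Total. Their opposite-strand partners there were Lrrc41 (-0.16, not called), Fancd2os (-0.44, adjusted p 0.00631) and Rffl (0.12, not called). Over all libraries these partners averaged 95.8, 0.537 and 15.0 CPM. Undoing the log2 returned whole reads for 100% of values (tolerance 0.1), at 32.3 to 57.9 M reads per library.

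The 17515 genes above 0 in at least 3 libraries were fitted on the deposited scale with limma 3.58.1 in R 4.3.3 (trend and robust variances, 6 group means, all 18 libraries), with a call at an adjusted p under 0.05 (Benjamini-Hochberg over all of them). A change of log2(CPM + 1) understates that of genes at low level. An interaction is the knockout change in Heavy minus that in Light, or in Light minus that in Total. Replicate libraries had correlations of 0.986 to 0.999. None agreed within sampling noise, with a chi-square of 12.2 to 241 for each degree of freedom. The script was tested on simulated data.

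Libraries with the same number deviated together between Heavy and Light within a genotype (correlations of 0.276 to 0.603 in knockout and 0.324 to 0.412 in control cells), a pairing found in the data and not stated by the labels. Light and Total libraries did so in knockout cells (0.434 to 0.642) and not in control cells (-0.647 to 0.355), and no block within genotype was fitted for them. Knockout and control libraries of a fraction did not do so for every number, so the block was an alternative. Their correlations were -0.453 to -0.233 in Heavy and -0.068 to 0.083 in Light. In Total they were 0.256, -0.161 and 0.5575 for the libraries numbered 1, 2 and 3.

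Values in every library are given for called genes whose groups do not overlap, with a mean of at least 5 CPM, up to 8 in each direction in a fraction, and up to 5 in the other comparisons. The other genes are named with their pathway, some with library values, and which of them got these was chosen after their values were seen. The 40 genes, the other lists and the alternatives were chosen with earlier results of these data known. Alternatives were quantile normalization, median-of-ratios scaling, voom, a mean of at least 1 CPM, no filter, limma without trend, a comparison's libraries alone, a pseudocount of 0.1, a replicate block, the coding-length trend removed over 50 bins (coding lengths from the GENCODE annotation of GRCm38, for 15637 tested genes), both together, each library left out, and all knockout libraries numbered 1 left out. The block within genotype was chosen after seeing the data. Positions are from the same annotation, and promoter windows from RefSeq. The rest used Python 3.11.15, with matplotlib 3.10.9 for figures and scipy 1.17.1, pandas 2.3.3 and numpy 2.4.6 for tables. Protein sequences were not analysed here.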

Additional observations from a re-analysis of the deposited data

Results flagged for a closer look

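The knockout change of Xrcc1 differed between Heavy and Light RNA by -0.67 on the log2 scale (SE 0.16, limma adjusted p 0.0407), by a direct test of the difference between the fractions. Xrcc1 was lower in knockout than in control libraries by 0.92 in Heavy and by 0.25 in Light, and no knockout library reached a control library in either. The difference kept its sign in all 31 alternative settings (-0.77 to -0.48) and was past the threshold in 9 of them.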

How the results depend on the processing

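The counts in Total held best, with 16 of the 40 genes called and 15 to 19 under every alternative that left no library out. For the alternatives, the shares of all tested genes called are not given here, so their counts cannot be set beside a background. Leaving out 1 library gave 11 to 18 in Total, 11 to 18 in Light and 11 to 17 in Heavy; 0 to 3 for Heavy against Light, 0 to 8 for Light against Total (8 without knockout Heavy library 1) and 17 to 23 in control Heavy against Light; and for the other repair genes 20 to 37 in Total, 23 to 37 in Light and 28 to 36 in Heavy. With the Heavy libraries fitted alone, 8 of the 40 and 15 of the 91 other repair genes were called. Between Heavy and Light the count was 0 under quantile normalization, median-of-ratios scaling, voom, a comparison's libraries alone, a pseudocount of 0.1, the length trend removed, that with the replicate block, and the block within genotype. It was 2 with a mean of at least 1 CPM or without trend, and 4 without the knockout libraries numbered 1. Between Light and Total it was 1 with a mean of at least 1 CPM or without trend, 5 with the libraries alone and 3 without the knockout libraries numbered 1. With the replicate block over all libraries, 16, 15 and 16 of the 40 genes were called in Total, Light and Heavy, 1 between Heavy and Light and 19 in control Heavy against Light; only the calls of Trp53bp1 were lost. The signs of Trp53bp1 in Light (-0.089), Fanca in Heavy (-0.031) and Prkdc in Heavy (-0.24) reversed with the length trend removed, with or without the block. In other respects the cause of these differences was not tested. Calls that held under every alternative numbered 9 of 16 in Total, 5 of 16 in Light, 5 of 16 in Heavy, 0 of 1 between Heavy and Light and 13 of 20 in control Heavy against Light. Genes near 1 CPM, such as Lig4 and Blm, limit what depth can show.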
